A study of Mus musculus with 24 samples.

Results

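IFN-alpha and IFN-gamma were set directly against each other 1 h after their addition to NIH-3T3 cells, an established mouse embryonic fibroblast line. The comparison used 8 of the 24 one-colour arrays of total cellular RNA, 4 per interferon, chosen by their labels, and arrays with the same replicate number were treated as pairs. Each interferon was given at 100 U/ml in fresh medium together with 200 uM 4-thiouridine (4sU), a uridine analogue that cells incorporate into newly made transcripts, and 4sU was present for the whole 60 min. A further 4 arrays of mock cells, which had fresh medium and the same 4sU but no interferon, gave the untreated level. All cells were at passage 5 to 15 after thawing and had been plated 24 h earlier, so every group had also received a change of medium. The same treatments at 3 h (3 arrays each, with 500 uM 4sU between 150 and 180 min) served as a second, separate set of samples. The labels do not say whether replicates were separate cultures, so p-values reflect only how far these arrays vary, and that variation may be technical.

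Type I interferons such as IFN-alpha signal through the receptor chains Ifnar1 and Ifnar2 and the kinases Tyk2 and Jak1, and the main product is ISGF3, a complex containing Stat2 and Irf9 that binds the interferon-stimulated response element (ISRE) of antiviral genes. IFN-gamma, the type II interferon, signals through Ifngr1 and Ifngr2 with Jak1 and Jak2 and acts on gamma-activated sequences (GAS) in genes such as Irf1. Many genes carry elements for both pathways, so the programmes overlap and a direct comparison asks which genes respond unequally.

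Values are GCRMA signals, a background-corrected and normalized probe set summary on the log2 scale, and each difference is IFN-alpha minus IFN-gamma on that scale with its standard error (SE). Differences with an adjusted p (Benjamini-Hochberg, limma) under 0.05 are termed called. Among 19305 probe sets above log2 4 on at least 3 of the 24 arrays, 151 were called (0.782%), 59 higher with IFN-alpha and 92 higher with IFN-gamma. When the pairing of arrays was ignored (no replicate block) the count was 21, with 5 in favour of IFN-alpha and 16 of IFN-gamma, and of 46 called genes described by name 11 kept the call. At gene level, with the brightest probe set standing for each of 9421 genes, 36 genes were higher with IFN-alpha (0.382%) and 34 higher with IFN-gamma (0.361%). Of these 70 genes 41 differed by more than 1 on the log2 scale, 18 in favour of IFN-alpha and 23 in favour of IFN-gamma, although for Mx2, Oasl2, Parp14 and Slfn8 the lower group was below log2 4 and a 2-fold difference is not shown. Every one of the 70 had the same sign in all 4 replicate pairs. The 4 arrays of each interferon did not overlap for 46 of them (21 higher with IFN-alpha and 25 with IFN-gamma). Both counts use the arrays that chose the genes, so they add no support, and the shares over all genes were not counted. The median difference over all genes was 0.04, against 1.04 over the genes called higher with IFN-alpha and -1.21 over those called higher with IFN-gamma, as the choice of called genes requires.

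Fibroblast markers were present, with 21 of 21 measured markers above log2 4 and Vim the brightest at 13.9. Of 13 leukocyte markers 1 was above that level (Cd14, at 5.42), and none of 14 epithelial and endothelial markers was, the highest being Epcam at 3.78. Array medians ran from 2.98 to 3.11, and 16933 to 17688 probe sets exceeded log2 4 on each of the 8 arrays. Both replicate 2 arrays stood apart in the actin 3' over 5' probe ratio, a measure of how much signal the 5' end of a transcript has lost, at 3.09 with IFN-alpha and 3.43 with IFN-gamma on the log2 scale against 0.785 to 1.26 on the other 6. The mock array of that number was at 2.99, so all 3 treatments share the feature, and its part in any gene's value was not tested. In bulk RNA, fewer responding cells and less RNA per responding cell cannot be told apart.

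**Figure D1:**
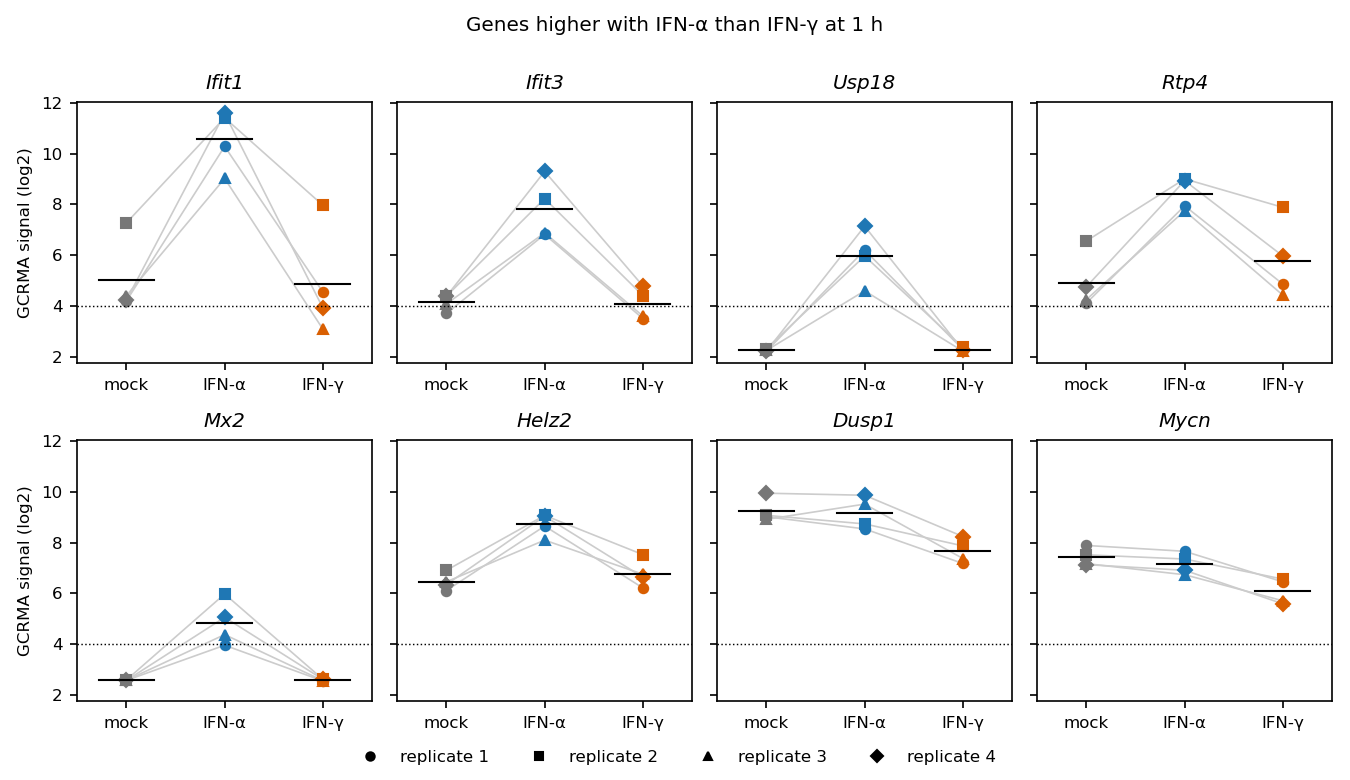
GCRMA signal (log2, vertical axis) of 8 genes higher with IFN-alpha in mock, IFN-alpha and IFN-gamma cells at 1 h; each point is an array, its shape the replicate number, grey lines join arrays of a number, black bars are group means and the dotted line marks log2 4. Ifit1 to Helz2 have their highest mean with IFN-alpha, and Dusp1 and Mycn their lowest mean with IFN-gamma.

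The genes that most favoured IFN-alpha encode antiviral proteins. Ifit1, which binds viral RNA that lacks the host cap modification, read 10.29, 11.42, 9.02 and 11.59 with IFN-alpha in replicates 1 to 4 and 4.55, 7.97, 3.08 and 3.92 with IFN-gamma. The mock arrays read 4.19, 7.27, 4.40 and 4.22, so replicate 2 was high without any interferon and with IFN-gamma alike, yet the interferon groups did not overlap. The fitted difference was 5.70 (SE 0.56, adjusted p = 0.0011 in limma), or 52.0-fold, and without the replicate block its adjusted p was 0.0985. It was 6.31 (79.5-fold) without IFN-alpha replicate 2 and 5.07 (33.6-fold) without IFN-alpha replicate 4. As 2 IFN-gamma arrays lay below log2 4, it was 5.45 with such values raised to 4. Ifit3, a partner of Ifit1, read 6.82, 8.23, 6.88 and 9.30 with IFN-alpha against 3.50, 4.40, 3.60 and 4.79 with IFN-gamma, a difference of 3.74 (SE 0.28, adjusted p = 0.000274) or 13.3-fold. Its mean with IFN-gamma, 4.07 ± 0.63 (SD, n = 4), lay within the spread of the mock mean of 4.13 ± 0.32 (n = 4).

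Usp18, a protease that removes Isg15 from proteins and damps the IFN-alpha receptor, was above log2 4 on all 4 IFN-alpha arrays (6.20, 5.96, 4.59 and 7.14) and on every IFN-gamma and mock array between 2.21 and 2.36. Its difference of 3.70 (SE 0.35, adjusted p = 0.000937 in limma) corresponds to at least 3.93-fold, a bound taken against log2 4. With all values under 4 raised to 4 the difference was 1.97 and the adjusted p 0.125, so the call rests on signals below that level. Mx2, a dynamin-like antiviral GTPase, followed the same pattern with 3.95, 5.97, 4.37 and 5.05 with IFN-alpha against 2.54 to 2.61 with IFN-gamma, at least 1.78-fold (difference 2.26, adjusted p = 0.005). Its call, too, was lost with the floor (adjusted p = 0.476), and without the arrays of replicate 4 its adjusted p was 0.0811.

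Rtp4, a Golgi-associated chaperone induced by interferon, read 7.95, 9.01, 7.75 and 8.94 with IFN-alpha and 4.86, 7.88, 4.42 and 5.96 with IFN-gamma. The groups overlapped through the IFN-gamma replicate 2 array, whose mock counterpart was also the highest at 6.56. Within pairs the difference ran from 1.12 in replicate 2 to 3.33 in replicate 3, with a fitted 2.63 (SE 0.32, adjusted p = 0.00382) or 6.19-fold. Its adjusted p was 0.0732 without the arrays of replicate 1 and 0.0554 without those of replicate 4. A dimmer probe set of Rtp4, below log2 4 in both interferon means, differed by 0.35 (adjusted p = 0.591). Helz2, a helicase and coactivator, read 8.65, 9.07, 8.09 and 9.04 against 6.21, 7.52, 6.75 and 6.63, with no overlap. Its difference of 1.94 (SE 0.19, adjusted p = 0.0011), or 3.83-fold, was called under every alternative tried. Ddx58, the RNA sensor RIG-I, differed by 1.53 (2.88-fold), with pairs between 1.35 and 1.63. Dtx3l, a ubiquitin ligase of the Parp9 complex, differed by 1.31 (2.47-fold) with pairs between 1.22 and 1.47, although its levels overlapped, replicate 2 being the highest in all 3 treatments.

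The list of antiviral effectors of the ISGF3 type had 39 tested members. Of these 16 were higher with IFN-alpha (against 0.382% of all genes), 0 were higher with IFN-gamma and 23 did not pass. The members' median difference was 0.70 and 36 of 39 were above 0, beside a median of 0.04 over all genes. The 16 were Ifit1, Ifit3, Usp18, Rtp4, Mx2, Oasl2, Helz2, Slfn8, Parp14, Samd9l, Tor3a, Ddx58, Xaf1, Dtx3l, Eif2ak2 and Trim25. Without the replicate block 4 of the members were called, and with all values under log2 4 raised to 4 it was 11. Leaving out replicate 1 gave 8 and replicate 4 gave 9, while leaving out single interferon arrays gave 12 to 18. No member was called higher with IFN-gamma under any alternative.

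Further effectors were also higher with IFN-alpha. Samd9l, a translation inhibitor, differed by 1.66 (3.16-fold) and Tor3a, a torsin ATPase, by 1.61 (3.04-fold). Xaf1, a proapoptotic factor, differed by 1.47 (2.77-fold) and the predicted gene Gm20559 by 1.40 (2.64-fold). Slfn8, Parp14, Oasl2 and the RNA sensor Znfx1 were below log2 4 in the IFN-gamma mean, so their differences of 1.81, 1.80, 2.09 and 1.62 stand for at least 1.90-, 1.52-, 1.85- and 2.33-fold. Dimmer probe sets that were not called gave 1.17 and 0.36 for Tor3a (adjusted p = 0.132 and 0.377). For Xaf1 and Parp14 they gave 0.62 and 0.29 (adjusted p = 0.187 and 0.559). Oasl2, an oligoadenylate synthetase-like protein, read 4.94, 5.75, 3.16 and 5.70 with IFN-alpha, so its replicate 3 array was under log2 4 and only 0.27 above its IFN-gamma partner. Daxx, a chaperone of histone H3.3 in nuclear bodies, differed by 0.97 (1.96-fold) with pairs from 0.49 to 1.28. For Oasl2, Parp14, Slfn8, Gm20559 and Daxx the smallest of the 4 pair differences was that of replicate 3.

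Several of these calls depended on single arrays. Daxx, Oasl2 and Parp14 lost the call when any of the 6 interferon arrays of replicates 1, 2 and 4 was left out, with adjusted p up to 0.0968, 0.195 and 0.121. Gm20559 and Znfx1 lost it without any interferon array but that of IFN-alpha replicate 3 (up to 0.165 and 0.18). Slfn8 lost it without IFN-alpha replicate 4, IFN-gamma replicate 2 or IFN-gamma replicate 4 (up to 0.0655). Samd9l, Tor3a and Xaf1 lost it without the arrays of replicate 1 (adjusted p = 0.0732, 0.0716 and 0.0736). Each kept its direction throughout, on the same arrays that chose the genes.

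Several known antiviral genes missed the threshold. Mx1, the sister gene of Mx2, read 4.42, 6.23, 3.22 and 5.24 with IFN-alpha and 2.82 to 3.10 with IFN-gamma, a difference of 1.82 with adjusted p = 0.0889. It passed without IFN-alpha replicate 3 (adjusted p = 0.00598). Rsad2, the antiviral enzyme viperin, read 3.01, 7.46, 2.54 and 5.01 against 2.51 to 2.89, so 2 of its 4 IFN-alpha arrays were above log2 4 (difference 1.86, adjusted p = 0.41). Ifit2, already at 8.41 in mock cells, differed by 0.41 (95% interval 0.19 to 0.64, adjusted p = 0.138). Oas1a, Oasl1 and Ifih1 were below log2 4 on all 12 arrays at 1 h.

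The RefSeq promoter table (GRCm38.p6) gave windows of 250 bases before to 50 after the start for 31 of the 36 genes higher with IFN-alpha and 27 of the 34 higher with IFN-gamma. The ISRE core, GAAANNGAAA on either strand, was in 6 of the 31 (19.4%) and 0 of the 27, beside 3.61% of 7724 tested genes with a window and 3.44% of all 32851 windows. The GAS letters TTCNNNGAA, which read the same on both strands, were in 1 of the 31 (3.23%) and 8 of the 27 (29.6%), beside 7.86% of the tested genes and 8.3% of all windows. The motifs were searched separately, so a stretch of bases could count for both, and Eif2ak2 held both. These counts describe letters in a window, not bound sites, and no test was made. The 4 genes with the largest difference whose window holds the ISRE core are shown as examples of where it lies, with the core in capitals (it reads TTTCNNTTTC in the direction of these genes). Ifit1 is shown at chr19:34640730-34640849 on the plus strand, Ifit3 at chr19:34583318-34583437 on the plus strand, Slfn8 at chr11:83020794-83020913 on the minus strand and Ddx58 at chr4:40239776-40239895 on the minus strand.
Ifit1: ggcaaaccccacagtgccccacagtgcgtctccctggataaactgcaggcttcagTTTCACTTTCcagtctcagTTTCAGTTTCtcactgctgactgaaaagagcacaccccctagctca
Ifit3: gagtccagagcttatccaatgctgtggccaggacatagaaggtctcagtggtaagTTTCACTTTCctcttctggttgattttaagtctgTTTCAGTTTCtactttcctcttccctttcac
Slfn8: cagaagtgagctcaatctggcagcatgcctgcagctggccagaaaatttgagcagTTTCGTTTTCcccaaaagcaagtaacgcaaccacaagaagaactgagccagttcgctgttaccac
Ddx58: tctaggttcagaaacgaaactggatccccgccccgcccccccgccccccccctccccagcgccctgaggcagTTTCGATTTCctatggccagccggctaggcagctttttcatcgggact
Ifit1 and Ifit3 each hold 2 cores, the first starting 104 and 156 bases before the start, whereas the cores of Slfn8 and Ddx58 start 48 bases before and 2 bases after it. Trim26 (2 cores) and Eif2ak2 (1) were the other genes of the 6.

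**Figure D2:**
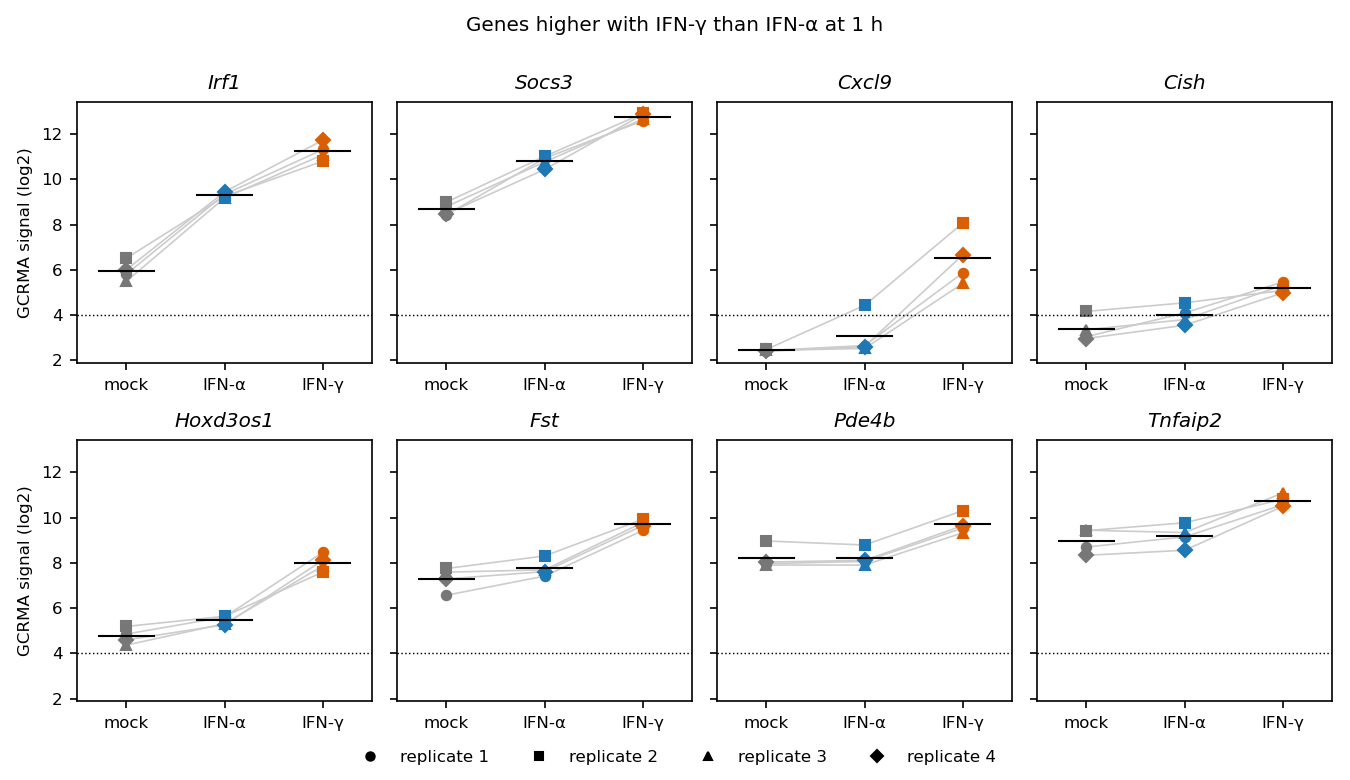
GCRMA signal (log2, vertical axis) of 8 genes higher with IFN-gamma in mock, IFN-alpha and IFN-gamma cells at 1 h, drawn as for the IFN-alpha genes with replicate shapes, group means as bars and log2 4 dotted. Irf1 and Socs3 step up from mock to IFN-alpha to IFN-gamma, while the IFN-alpha means of Fst, Pde4b and Tnfaip2 lie near mock.

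Irf1 and Socs3, known targets of IFN-gamma, were higher with IFN-gamma than with IFN-alpha. Irf1, a transcription factor and classical GAS gene, read 9.34, 9.26, 9.19 and 9.45 with IFN-alpha and 11.33, 10.81, 11.10 and 11.74 with IFN-gamma, from 5.82, 6.52, 5.50 and 6.01 in mock cells. Every IFN-gamma array was above every IFN-alpha array by 1.36 or more. The difference was -1.93 (SE 0.21, adjusted p = 0.00175 in limma), or 3.82-fold, on top of a difference from mock of 3.35 with IFN-alpha and 5.28 with IFN-gamma. Socs3, a feedback inhibitor of cytokine receptors, read 10.94, 11.02, 10.78 and 10.45 against 12.59, 12.92, 12.67 and 12.87, a difference of -1.97 (SE 0.13, adjusted p = 0.000205) or 3.91-fold. All 3 of its probe sets were called, between -2.49 and -1.87. Irf1 and Socs3 were thus above mock with both interferons and higher with IFN-gamma.

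Cxcl9, a chemokine that attracts T cells, read 5.87, 8.08, 5.41 and 6.67 with IFN-gamma. With IFN-alpha it was 4.44 in replicate 2 and 2.53 to 2.66 elsewhere, and in mock cells 2.41 to 2.49. The difference of -3.45 (SE 0.36, adjusted p = 0.00157) was the largest in this direction and amounts to at least 5.28-fold against log2 4. With values under 4 raised to 4 it was -2.40 with adjusted p = 0.0696. Cish, another Socs family inhibitor, read 4.10, 4.55, 3.81 and 3.56 with IFN-alpha against 5.47, 5.10, 5.33 and 4.99, a difference of -1.22 (2.33-fold, adjusted p = 0.0259). Its call was lost without any interferon array but that of IFN-gamma replicate 2, with adjusted p up to 0.121.

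The list of early GAS-type targets had 11 tested members, of which 4 were higher with IFN-gamma (Cxcl9, Irf1, Socs3 and Cish), against 0.361% of all genes, and 0 higher with IFN-alpha. The list's median difference was -0.18. Between 3 and 4 members were called under every alternative. Among the 7 that did not pass, Socs1 read 3.03, 2.23, 2.88 and 4.29 with IFN-alpha against 5.23, 2.26, 2.65 and 6.16 with IFN-gamma, so that replicates 1 and 4 differed by -2.19 and -1.87 while replicates 2 and 3 stayed under log2 4 with both. Its fitted difference was -0.97 with a 95% interval from -2.10 to 0.17 (adjusted p = 0.593).

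Windows with GAS letters are shown for the 4 genes of largest difference among the 8 that hold them, since this group favours IFN-gamma. They are Socs3 at chr11:117969457-117969576 on the minus strand, Irf1 at chr11:53769868-53769987 on the plus strand, Pde4b at chr4:102569854-102569973 on the plus strand and Mob3c at chr4:115827914-115828033 on the plus strand, with the letters in capitals.
Socs3: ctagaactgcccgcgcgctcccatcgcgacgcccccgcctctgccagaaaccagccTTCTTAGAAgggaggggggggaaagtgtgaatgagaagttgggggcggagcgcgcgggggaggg
Irf1: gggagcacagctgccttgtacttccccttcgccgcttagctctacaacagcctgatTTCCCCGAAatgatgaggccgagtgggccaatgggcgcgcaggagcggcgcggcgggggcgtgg
Pde4b: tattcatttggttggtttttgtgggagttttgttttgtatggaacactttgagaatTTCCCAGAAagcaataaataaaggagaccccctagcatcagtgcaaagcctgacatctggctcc
Mob3c: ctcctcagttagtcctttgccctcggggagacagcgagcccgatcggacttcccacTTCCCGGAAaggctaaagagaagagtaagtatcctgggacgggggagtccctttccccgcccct
The motifs start 154, 90, 150 and 110 bases before the start, in that order. The other 4 genes were Cish (2 motifs), Usp27x, Samhd1 and Sod2. Because each gene was picked for holding the letters, their presence in these windows is no result.

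The largest differences outside the textbook targets were in genes with other roles. Rnd1, a small GTPase that loosens the actin skeleton, read 6.01, 3.99, 6.39 and 4.41 with IFN-alpha against 8.54, 6.92, 8.02 and 7.74 with IFN-gamma. The difference was -2.60 (SE 0.23, adjusted p = 0.000524), or 6.08-fold, and the groups did not overlap. Hoxd3os1, a transcript opposite to Hoxd3 in the Hoxd cluster, read 5.61, 5.64, 5.31 and 5.26 against 8.47, 7.59, 7.87 and 8.12, a difference of -2.56 (SE 0.18, adjusted p = 0.000252) or 5.88-fold. Array probes for such a transcript can share sequence with the gene on the other strand, which was not tested. The lowest IFN-gamma array was 1.95 above the highest IFN-alpha array, the widest gap among the named genes of this direction.

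Fst, follistatin, which binds and neutralizes activin, read 7.41, 8.30, 7.69 and 7.61 with IFN-alpha and 9.43, 9.93, 9.78 and 9.65 with IFN-gamma. Its difference was -1.94 (SE 0.14, adjusted p = 0.000215), or 3.84-fold, and a second probe set gave -2.23. None of the other 25 tested members of the activin, BMP and TGF-beta list passed. Cblb, a ubiquitin ligase that limits receptor signalling, differed by -2.01 (4.03-fold) on the brighter of its probe sets, with pairs from -2.12 to -1.81, but by 0.14 on the other (adjusted p = 0.876). The probe sets of Cblb therefore disagree.

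Osgin1, an oxidative stress response gene, was above log2 4 on the IFN-gamma arrays and below it on the IFN-alpha arrays (5.26, 4.74, 4.60 and 6.36 against 2.73 to 3.75), at least 2.37-fold. With values under log2 4 raised to 4 its adjusted p was 0.215. Txnip, the thioredoxin inhibitor, differed by -1.73 (3.31-fold), and by -1.04 on a dimmer probe set that was not called (adjusted p = 0.499). Ggct, an enzyme of glutathione breakdown, differed by -1.55 (2.92-fold), and Hk2, hexokinase 2, by -1.12 (2.17-fold). Pde4b, a cyclic AMP phosphodiesterase, had pairs between -1.54 and -1.43, and its mean with IFN-alpha (8.22 ± 0.39, SD, n = 4) equalled that in mock cells (8.22 ± 0.50, n = 4). All 3 of its probe sets were called. Dact1, a Wnt pathway antagonist, differed by -1.46 (2.75-fold) and Mob3c, a kinase coactivator, by -1.40 (2.64-fold). Pim3, a serine/threonine kinase, differed by -1.40 (2.64-fold), with 2 of its 3 probe sets called and the dimmest at 0.07. Sting1, the adaptor of cytosolic DNA sensing, differed by -1.21 (2.31-fold), Usp27x, a deubiquitinase, by -1.17 (2.26-fold) and Itpkc, an inositol trisphosphate kinase, by -1.24 (2.37-fold). Without the arrays of replicate 2 the adjusted p of Itpkc was 0.0778 and that of Sting1 0.0546, and without those of replicate 4 that of Itpkc was 0.0658.

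Of 19 tested NF-kB subunits and targets 4 were higher with IFN-gamma (against 0.361% of all genes) and 0 with IFN-alpha, with a list median of -0.12. Tnfaip2, a TNF-induced gene, read 9.15, 9.77, 9.34 and 8.56 with IFN-alpha against 10.57, 10.81, 11.09 and 10.49 (difference -1.54, SE 0.15, adjusted p = 0.00109, 2.91-fold). Map3k8, a kinase upstream of ERK, differed by -0.99 (1.99-fold), Bcl3, an IkB-like coregulator, by -0.66 (1.58-fold) and Sod2, the mitochondrial superoxide dismutase, by -0.60 (1.51-fold). The last 3 lost their calls without most single arrays (Bcl3 and Sod2 without any but IFN-alpha replicate 1, Map3k8 without any but IFN-alpha replicate 4), with adjusted p up to 0.144, 0.176 and 0.149. The NF-kB subunits themselves are not among the called genes, and without the replicate block 0 list members were called. With all 24 arrays and the block 2 were, the adjusted p of Bcl3 and Sod2 being 0.0642 and 0.102.

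**Figure D3:**
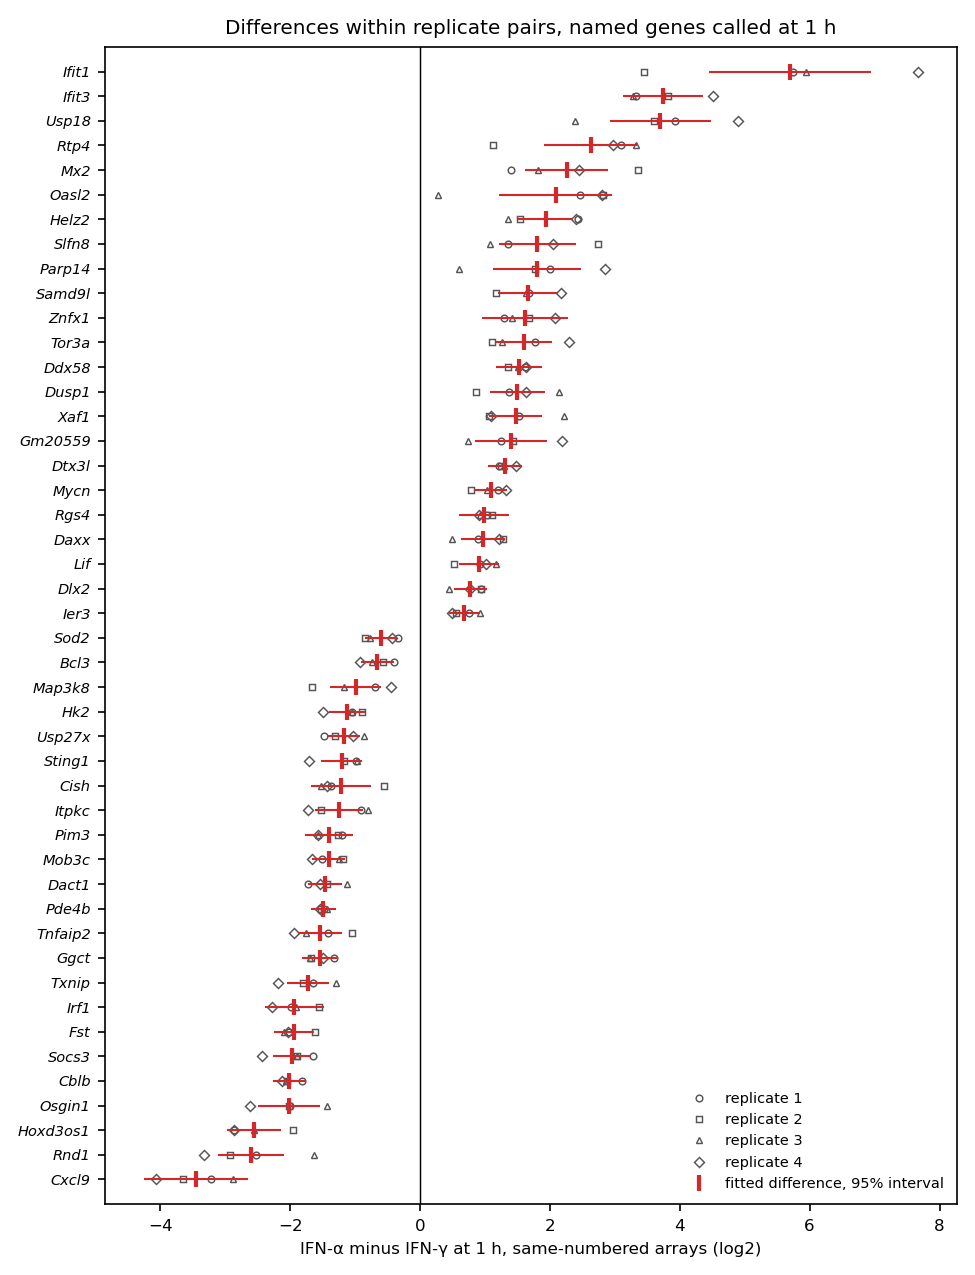
IFN-alpha minus IFN-gamma at 1 h (log2, horizontal axis) within each same-numbered pair of arrays for the 46 named genes that were called, with open points by replicate number, red ticks for the fitted difference and red lines for its 95% interval. All 4 pairs of every gene lie on one side of 0, from 5.70 for Ifit1 to -3.45 for Cxcl9, and the pairs of Pde4b nearly coincide while those of Ifit1 span 3.45 to 7.67. The genes were called on these same arrays.

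A higher level with IFN-alpha did not always go with a gain over mock. Of the 36 genes higher with IFN-alpha, 24 had an IFN-alpha mean farther above mock than the IFN-gamma mean was from it, and they include all 16 called antiviral effectors. For the other 12 it was the IFN-gamma mean that lay farther away, below mock. All 34 genes higher with IFN-gamma had the IFN-gamma mean farther above mock. Both differences from mock use the same 4 mock arrays, so they are given side by side and were not compared as independent values.

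**Figure D4:**
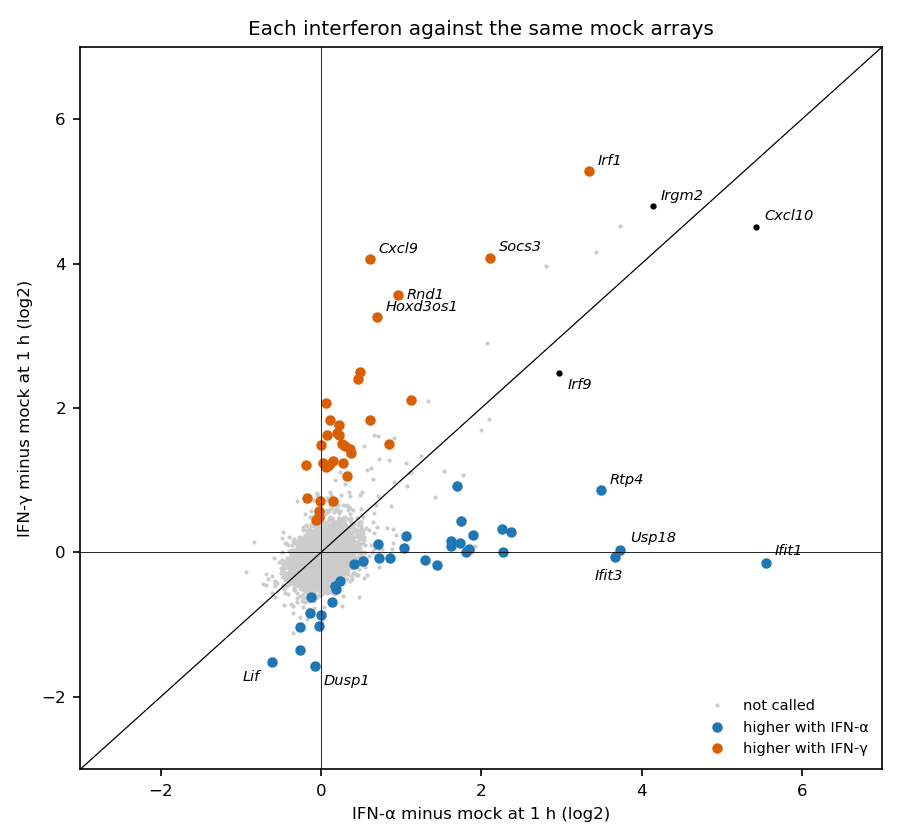
Each of the 9421 genes by IFN-alpha minus mock (horizontal) and IFN-gamma minus mock (vertical) at 1 h, in log2 units, with the genes called in the direct comparison in blue (higher with IFN-alpha) and orange (higher with IFN-gamma), uncalled genes in grey and the diagonal marking equal values. Ifit1, Ifit3 and Usp18 lie along the horizontal axis, Dusp1 and Lif below it, and the uncalled Irgm2, Cxcl10 and Irf9 near the diagonal far from 0; both axes share the mock arrays.

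The genes whose IFN-gamma mean lay below mock included several that growth factors induce. Other such genes lay above mock with IFN-gamma, among them Cebpd (by 1.58) and Zfp36 (by 1.29). Dusp1, a phosphatase that switches off MAP kinases, read 8.54, 8.73, 9.52 and 9.86 with IFN-alpha and 7.17, 7.87, 7.37 and 8.24 with IFN-gamma, against 9.02, 9.07, 8.91 and 9.95 in mock cells. The interferon groups did not overlap, and the difference was 1.50 (SE 0.19, adjusted p = 0.0049 in limma) or 2.83-fold. Against mock it was -0.07 with IFN-alpha and -1.58 with IFN-gamma (adjusted p = 0.948 and 0.00265). Without the arrays of replicate 4 the direct adjusted p was 0.0803. Mycn, a Myc family transcription factor, read 7.65, 7.35, 6.73 and 6.91 against 6.45, 6.56, 5.70 and 5.58, a difference of 1.09 (SE 0.11, adjusted p = 0.00157) or 2.13-fold. Its difference from mock was -0.26 with IFN-alpha and -1.35 with IFN-gamma.

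Lif, an interleukin 6 family cytokine, read 7.37, 7.09, 7.73 and 7.13 with IFN-alpha and 6.44, 6.57, 6.56 and 6.12 with IFN-gamma, below mock values of 7.84 to 8.01 in both. The difference was 0.91 (1.88-fold, adjusted p = 0.0168). Dlx2, a homeobox factor, differed by 0.78 (1.71-fold), Rgs4, which turns off G protein signals, by 0.99 (1.99-fold) and Ier3, an immediate early survival gene, by 0.68 (1.61-fold). Their differences from mock were -0.26, -0.02 and 0.18 with IFN-alpha and -1.04, -1.01 and -0.50 with IFN-gamma. These 4 calls depended on single arrays. That of Rgs4 was lost without any interferon array but IFN-gamma replicate 3 (adjusted p up to 0.14). Dlx2 lost it without IFN-alpha replicates 1, 2 or 4 or IFN-gamma replicates 1 or 2 (up to 0.069). Lif lost it without IFN-alpha replicates 1 or 4 or IFN-gamma replicates 1, 3 or 4 (up to 0.0811), and Ier3 without IFN-alpha replicates 1 or 4 or IFN-gamma replicates 1, 2 or 3 (up to 0.104). The remaining 8 genes below mock with IFN-gamma were Dusp1, Mycn, Ankrd1, Ankrd26, Cited2, Fzd5, Ptger4 and Thada.

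Of 36 tested immediate early genes 2 were called on their brightest probe set (Mycn and Ier3), both higher with IFN-alpha. Of 14 MAP kinase phosphatases and Sprouty genes 1 was (Dusp1), against 0.382% of all genes in that direction. The medians of these lists were 0.25 and 0.39, beside 0.04 over all genes, and 27 of 36 and 11 of 14 members were above 0. Against mock the list medians were 0.13 and -0.03 with IFN-alpha and -0.14 and -0.36 with IFN-gamma. In the immediate early list 2 members were above mock with IFN-gamma at an adjusted p under 0.05 in limma, and 0 with IFN-alpha. How many were below mock at that threshold was not counted. The count of called immediate early genes ran from 0 without the replicate block to 7 with an intensity trend in the variance model.

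Other genes stood above mock with both interferons and had no call between them. Irgm1, a p47 GTPase that acts against intracellular bacteria, read 8.43, 9.17, 8.38 and 9.41 with IFN-alpha and 9.66, 9.25, 9.23 and 10.18 with IFN-gamma from 5.25 to 5.61 in mock cells. The difference between the interferons was -0.73 with a 95% interval from -1.23 to -0.24 (adjusted p = 0.281), small beside differences from mock of 3.43 and 4.16. Irgm2, Igtp and Iigp1 of the same family differed by -0.66, -0.78 and -1.16 (adjusted p = 0.147, 0.359 and 0.116), and Ifi47 by 0.24 (adjusted p = 0.826). Of the 6 tested p47 GTPases 0 were called at 1 h, with a median of -0.70 and 4 at an unadjusted p under 0.05. Of all 9421 genes 879 were at such a p. The called shares over all genes were 0.382% and 0.361%, so 0 calls in a small list are no result about it. Iigp1 was called with all 24 arrays and the block (adjusted p = 0.0364) and Irgm2 with array weights (adjusted p = 0.0394). Of 6 tested guanylate-binding proteins 0 were called and 1 was at an unadjusted p under 0.05, with a median of -0.10. Gbp2 differed by -0.18 (95% interval -0.67 to 0.31).

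Cxcl10, a chemokine of the same receptor as Cxcl9, read 9.75, 10.72, 8.93 and 10.77 with IFN-alpha and 9.04, 9.25, 8.61 and 9.59 with IFN-gamma, from 4.24 to 5.45 in mock cells. Each pair was higher with IFN-alpha, by 0.33 to 1.47, but the difference of 0.92 (95% interval 0.30 to 1.54) had an adjusted p of 0.273. Cxcl9 and Cxcl10 thus had opposite signs, with a call for Cxcl9 only. The difference between these genes was not tested. Il6 was above mock with both interferons (by 1.99 and 1.70) and differed between them by 0.30 (95% interval -0.04 to 0.63). Tap1, the peptide transporter, differed by -0.83 (95% interval -1.35 to -0.31, adjusted p = 0.223). Of 16 tested MHC class I genes 0 were called and 1 was at an unadjusted p under 0.05, beside 879 of all 9421 genes at such a p.

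Among the components of the pathways themselves 0 of 13 tested receptors, kinases and STAT factors were called. Their median was 0.01 and 3 were at an unadjusted p under 0.05. Over all 9421 genes 879 were at such a p, and 0.382% and 0.361% were called in the 2 directions. Ifnar1 and Ifnar2 differed by -0.12 and -0.21, Ifngr1 and Ifngr2 by 0.38 and 0.57, and Jak1, Jak2 and Tyk2 by 0.01, -0.10 and 0.36. Among these 7 genes the widest 95% interval was that of Ifngr2, -0.04 to 1.17, so differences of that size would be compatible with these arrays. Irf9, the DNA-binding subunit of ISGF3, was above mock by 2.98 with IFN-alpha and 2.49 with IFN-gamma, and higher with IFN-alpha in each pair by 0.33 to 0.63 (fitted 0.48, 95% interval 0.18 to 0.79, adjusted p = 0.231). Stat2 differed by 0.00 (95% interval -0.72 to 0.73). Stat3 differed by -0.31 on its brightest probe set and by -0.07 on the next (adjusted p = 0.338 and 0.946). On the dimmest it differed by -1.53 (adjusted p = 0.000211, chosen here after its value was seen), so its probe sets disagree in size. With each gene taken as the mean of its kept probe sets, Stat3 (-0.64, adjusted p = 0.0237) and Ifnar2 (-0.50, adjusted p = 0.0298) were called higher with IFN-gamma. Of 6 tested interferon regulatory factors Irf1 was the 1 called.

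Of 16 tested inhibitors of cytokine signalling, Usp18 was higher with IFN-alpha (against 0.382% of all genes), Socs3 and Cish with IFN-gamma (against 0.361%), and 13 did not pass. The count of 3 was 2 without the replicate block or with values under log2 4 raised to 4. With limma no gene was called on its brightest probe set in the following lists. These were p53 targets (16 tested, 4 at an unadjusted p under 0.05), endoplasmic reticulum and oxidative stress (23 and 8), cell cycle (26 and 2), fibroblast matrix (21 and 0) and housekeeping (12 and 0). Over all genes 879 of 9421 were at an unadjusted p under 0.05. With so small a share of all genes called, 0 calls in a list of this size are no result about it. Array weights gave 2 calls in the stress list. The fibroblast matrix genes lay between -0.08 and 0.21 and the housekeeping genes between -0.11 and 0.27.

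The 70 genes were then read on the separate arrays taken at 3 h, where 4.15% of all genes were higher with IFN-alpha and 4.36% higher with IFN-gamma. Of the 36 genes higher with IFN-alpha at 1 h, 30 (83.3%) were called the same way at 3 h and all 36 kept their sign. Of the 34 higher with IFN-gamma, 31 (91.2%) were called the same way and 33 kept their sign. None of the 70 was called in the opposite direction. The median went from 1.04 at 1 h to 1.03 at 3 h for the first group and from -1.21 to -1.65 for the second. Dose and timing of 4sU differed between the times, so time and labelling cannot be told apart.

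**Figure D5:**
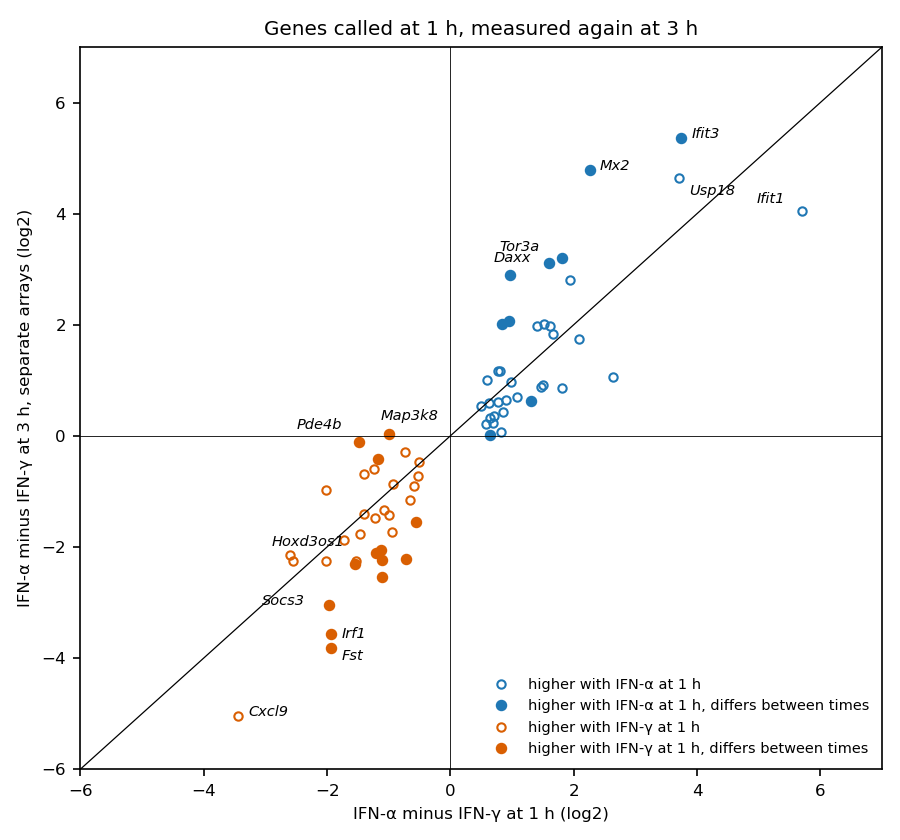
IFN-alpha minus IFN-gamma at 1 h (horizontal) against the same difference on separate arrays at 3 h (vertical), in log2 units, for the 70 genes called at 1 h, in blue where higher with IFN-alpha and orange where higher with IFN-gamma; filled points are genes whose difference changed between the times and the diagonal marks no change. Most points stay in their quadrant, Mx2 and Fst lie farther from 0 at 3 h, and Pde4b and Map3k8 lie near 0 at 3 h.

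The difference itself changed between the times for 9 of the 36 genes and for 13 of the 34, beside 2.77% of all genes. Of the 9 it was larger at 3 h for 7, and of the 13 for 10. Mx2 went from 2.26 to 4.78 (adjusted p of the change 0.00176), Tor3a from 1.61 to 3.11 (0.00322), Daxx from 0.97 to 2.90 (5.23e-05) and Ifit3 from 3.74 to 5.36 (0.0254). On the IFN-gamma side Fst went from -1.94 to -3.81 (3.64e-05), Irf1 from -1.93 to -3.56 (0.00299) and Socs3 from -1.97 to -3.04 (0.00401). Irf1 with IFN-alpha stood at 9.31 at 1 h and 7.68 at 3 h, while with IFN-gamma it stood at 11.2 at both times. Socs3 with IFN-alpha was at 8.58 at 3 h, near the mock mean of 8.48.

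A few early differences were smaller at 3 h. Pde4b went from -1.49 to -0.11 (adjusted p of the change 2.56e-05), Map3k8 from -0.99 to 0.03 (0.0273) and Usp27x from -1.17 to -0.42 (0.0311). Pde4b with IFN-gamma was at 9.71 at 1 h and 8.64 at 3 h, where mock cells had 8.65. These values are from its brightest probe set. At 3 h the next differed by -0.13, but the dimmest by -0.55 and was still called (adjusted p = 0.0314). Dtx3l, higher with IFN-alpha, went from 1.31 to 0.63 (0.0422), its IFN-gamma mean having moved from 5.58 to 8.95. For Rtp4 the values were 2.63 and 1.05, a change that did not pass (0.0795), and for Ifit1 5.70 and 4.05 (0.374).

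Other genes separated the interferons at 3 h without a call at 1 h. All 6 tested p47 GTPases and all 6 guanylate-binding proteins were called higher with IFN-gamma at 3 h, against 4.36% of all genes. Their medians were -1.09 and -1.32. Of the 39 antiviral effectors 37 were called higher with IFN-alpha (against 4.15% of all genes) and 1 with IFN-gamma. Oas1a, Oasl1, Ifih1 and Irf7, whose IFN-gamma values were all below log2 4 at 1 h, differed by 3.64, 3.38, 3.22 and 3.79 at 3 h, and for each the change between the times passed. The same held on the IFN-gamma side for Nlrc5, the activator of MHC class I genes, which was between 2.35 and 2.41 on all interferon arrays at 1 h and differed by -2.14 at 3 h (adjusted p of the change 2.56e-07). Genes this dim at 1 h passed the filter only through other arrays, those at 3 h included. A high level at 3 h was thus part of their choice, and these differences and changes add no support. Oas1a, Oasl1 and Ifih1 are also among the 39 antiviral effectors, so this limit applies to that count at 3 h.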

How the data were processed

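Total RNA from NIH-3T3 cells was measured on 24 one-colour arrays. The authors summarised them with GCRMA, per the submitters' processing notes, and deposited log2 values; the version and the number of GCRMA runs are not given in the sources used here. The number of arrays limits the precision. No further normalization was applied. Of 45101 probe sets 64 controls were left out. The GEO platform annotation gave 34945 of the rest 1 gene symbol, 932 several and 9160 none, and only the first kind was named. Probe sets above log2 4 on at least 3 of 24 arrays were kept (19305, of which 16890 have 1 symbol). Each gene was represented by whichever of its probe sets was brightest on average across the series.

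The 12 arrays at 1 h with 4sU were fitted with lmFit and eBayes of limma 3.58.1 in R 4.3.3, with group means and the replicate number as a block (6 residual degrees of freedom), because the comparison pairs same-numbered arrays. Deviations from the group means bear the pairing out: same-numbered IFN-alpha and IFN-gamma arrays correlated at 0.625 to 0.88, other pairs at -0.672 to 0.348, and 4 of 4 were closest to their own number. Across probe sets the median SD was 0.363 with IFN-alpha and 0.403 with IFN-gamma, against 0.245 for the differences within pairs. No arrays held identical values. The 9 arrays at 3 h were fitted alike, and the change between times on all 21 arrays with 4sU. At 3 h the pairing was less clear. Same-numbered IFN-alpha and IFN-gamma arrays correlated at 0.297 to 0.643 and other pairs at -0.557 to 0.347, and 2 of 3 were closest to their own number. Tests were two-sided with Benjamini-Hochberg adjustment over the 19305 probe sets. Where the lower mean was below log2 4, a fold is the bound against arrays raised to 4.

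Named genes were the 20 called genes with the largest difference in each direction, up to 4 called members of each of 22 lists, 50 fixed genes and up to 8 genes per direction called in the change between times; others that appear were chosen after their values were seen. The comparison, the members and the lists were chosen with earlier results of these data known. Only the fit of the 1 h comparison was tested on simulated data. Alternatives changed the block, the arrays in the fit, the floor, the filter, the normalization, the variance model, the threshold and the probe set of a gene, and left out replicates. Promoter windows came from RefSeq (GRCm38.p6). Mock arrays without 4sU entered only the filter, the choice of a gene's probe set and the fits of all 24 arrays. Raw intensity files were not used here.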

Additional observations from a re-analysis of the deposited data

Results flagged for a closer look

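In 8 of 172 gene and group combinations tested with 4 arrays each, 1 array lay farther from the other 3 than Dixon's test allows at the 95% level. Chance flags about 1 in 20 such groups. With IFN-alpha, replicate 4 was high for Apol6 (2.97, others 2.45 to 2.53), Cd274 (4.51, others 3.14 to 3.37), Irf7 (3.51, others at most 2.57) and Stat3 (9.24, others 8.59 to 8.69). Replicate 2, the pair with the high actin 3' over 5' ratio, was high with IFN-alpha for Cxcl9 (4.44, others 2.53 to 2.66), Ifih1 (2.82, others 2.35 to 2.39) and Sod2 (11.28, others 10.71 to 10.76). With IFN-gamma, replicate 1 of Oasl2 was low (2.48, others 2.89 to 2.93). Apol6, Ifih1, Irf7 and the Oasl2 value lie below log2 4.

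The difference between the interferons changed between 1 h and 3 h for 34 named genes in the test of that change. Values are the difference at 1 h less that at 3 h on the log2 scale. Negative values where the difference in favour of IFN-alpha was larger at 3 h were those of Rsad2 -5.61, Cmpk2 -5.02, Ifit1bl1 -4.87, Mx1 -4.57, Oas1a -3.65, Irf7 -3.50, Oasl1 -3.31, Ifih1 -3.16, Mx2 -2.52, Daxx -1.93, Ifit3 -1.62, Tor3a -1.50, Slfn8 -1.39 and Ifit2 -1.31. The difference in favour of IFN-alpha was smaller at 3 h for Dtx3l, at 0.68. The difference in favour of IFN-gamma was smaller at 3 h for Pde4b at -1.38, Map3k8 at -1.02 and Usp27x at -0.75. For the rest the difference lay farther to the IFN-gamma side at 3 h. BC023105 had 3.31, AA467197 2.84, Cd274 2.69, Zbtb7c 2.52, Apol6 2.35, Nlrc5 2.12, Calhm5 2.08, Tvp23a 1.88, Fst 1.87, Irf1 1.63, Gbp2 1.30, Socs3 1.07, Hk2 0.93, Sting1 0.91, Ggct 0.77 and Stat3 0.75. The value for Stat3 is that of its brightest probe set. The next went from -0.07 at 1 h to -1.06 at 3 h, but the dimmest from -1.53 to -1.04. At 1 h Cd274 and Zbtb7c differed by 0.15 and 0.07 and Oas1a by -0.004, so their signs there were not those at 3 h. Cmpk2, Ifit1bl1, Oas1a, Irf7, Oasl1 and Ifih1 had mock and interferon means below log2 4 at 1 h. So did BC023105, AA467197, Cd274, Zbtb7c, Apol6 and Nlrc5. The 4sU dose and window differed between the times, and their part in these values was not tested.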

How the results depend on the processing

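The 151 probe sets called between the interferons at 1 h came down to 21 with no replicate block, all of them among the 151. The count was 70 with all 24 arrays and no replicate block, 61 with only the 8 interferon arrays and the block, 83 with no filter, 77 at an adjusted p under 0.01 and 276 with array weights. Leaving out a replicate number or a single interferon array gave 66 to 122, from fewer arrays. At 3 h the 1466 calls came to 993 with no replicate block and ranged from 620 to 926 with a replicate number left out. The 429 calls for the change between times came to 104 with no replicate block and to between 163 and 436 with a replicate number left out. Raising values below log2 4 to 4 gave 106 at 1 h, quantile normalization 165 (35.2% higher with IFN-alpha, against 39.1%) and median centring 158 (34.8%). The share higher with IFN-alpha was 23.8% without the block, 28% without replicate 4, 46.4% with array weights and 48.4% without IFN-alpha replicate 3. Of the 46 named genes that were called, 8 kept the call under every alternative (Cblb, Fst, Helz2, Hoxd3os1, Ifit3, Irf1, Mob3c and Socs3), 11 kept it without the block, and 32 with each single interferon array left out. Their sign was the same in 1145 of 1145 checks, but these reuse the arrays that chose the genes, so a kept sign adds no support. Signs turned for some uncalled genes. Jak2 was 0.060 with array weights and Ifnar1 0.084 as the mean of its probe sets, and with replicates left out Jak2 ranged from -0.23 to 0.076, Ifnar1 from -0.24 to 0.011, Stat2 from -0.39 to 0.26, Gbp2 from -0.41 to 0.046 and Cd274 from -0.11 to 0.41. Differences near 0 (Jak1, Ifih1, Oas1a, Oasl1 and Tvp23a) also crossed it. Mx1 gained a call under 6 alternatives. Raising values below log2 4 to 4 left 31 of the 46 calls, ending those of Usp18, Mx2, Oasl2, Parp14, Slfn8, Cxcl9, Osgin1, Znfx1, Itpkc, Gm20559, Rgs4, Map3k8, Bcl3, Daxx and Sod2. The causes of changes not stated here were not tested.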

Other observations

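The remaining called genes include some outside the lists. Rnf213, a large ubiquitin ligase, Trim26 and Pnp, a purine nucleoside phosphorylase, were higher with IFN-alpha by 0.94, 0.80 and 0.60. Higher with IFN-gamma were Rnf19b (-1.11), a ubiquitin ligase, Cyp26b1 (-1.11), an enzyme that breaks down retinoic acid, Slc66a2 (-1.08), Samhd1 (-0.998), a nucleotide hydrolase that restricts retroviruses, Notch1 (-0.95), a cell surface receptor, and Ccl11 (-0.73), the eosinophil chemokine eotaxin, which was below log2 4 in both means. These genes lie outside the rule for named genes and were chosen after their values were seen. All of them were called the same way at 3 h, where Cyp26b1, Rnf19b and Ccl11 differed by -2.55, -2.23 and -2.21.

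A further 24 genes were called by another probe set but not by their brightest. Among them Sbno2, a transcriptional corepressor, differed by -1.21 and Pml, the scaffold of nuclear bodies, by 0.69 on those probe sets. Ptgs2 (0.69) and Egr2 (-0.53) of the immediate early list and Gclm (-0.62) of the stress list were called in this way too. All of these were chosen after their values were seen. No gene had called probe sets in both directions. Of the 70 called genes 34 had 2 or more kept probe sets, and for 31 of these all kept probe sets had the same sign. A shared sign is not a call: probe sets of Rgs4 (0.67), Ddx58 (1.01) and Sod2 (-0.47 and -0.07) did not pass.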
